A study of Homo sapiens with 8 samples.

Results

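The tRNAs described here are 8 cytosolic tRNA families with a long variable arm, 4 of leucine (tRNA-Leu-AAG, tRNA-Leu-CAG, tRNA-Leu-TAA and tRNA-Leu-TAG) and 4 of serine (tRNA-Ser-AGA, tRNA-Ser-CGA, tRNA-Ser-GCT and tRNA-Ser-TGA). They were taken by name from the peak lists of the ncRNA mapping. In all, 25 tRNA references of these anticodons had a peak in at least 1 library, of 156 cytosolic tRNA references with a peak. They carried 132 of the 924 cytosolic tRNA peaks and of the 4746 peaks in all lists. A reference is a set of tRNA genes of identical sequence, and it is named by amino acid, anticodon and sequence number (tRNA-Ser-GCT-3). tRNA-Leu-CAA and tRNA-SeC-TCA, which also have a long variable arm, were kept apart as comparators.

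The study asked which RNAs carry aldehydes such as that of 5-formylcytidine, and which of them depend on the dioxygenase ALKBH1. RNA from wild-type (WT) and ALKBH1 knockout (KO) HEK-293 cells, a line of human embryonic kidney origin (the labels give HEK-293 and the study's methods HEK293T), was labelled with the aldehyde-reactive probe (ARP), which puts biotin on aldehydes, and sequenced as input and as IP, the fraction bound to streptavidin. That gave WT input, WT IP, KO input and KO IP, with 2 libraries each and 8 in all. Per the study's methods, KO lines were made with CRISPR and each was grown from a single sorted cell. The study describes 2 independent ALKBH1 KO lines and does not say which was used for this pulldown. The effect of ALKBH1 and any other difference of the KO line used cannot be told apart.

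Leucine and serine tRNAs, with the selenocysteine tRNA, are the human cytosolic tRNAs whose variable arm forms a stem of its own, which seryl-tRNA synthetase uses to recognise its tRNAs. Leucine and serine each have 6 codons, so their tRNAs fall into several anticodon families, and each family holds near-identical gene copies called isodecoders. Cytidine is methylated in the variable arm of many tRNAs. tRNA-Leu-CAA also carries 5-methylcytidine at its wobble position, which ALKBH1 is known to oxidise to 5-formylcytidine. ALKBH1 is also known to demethylate 1-methyladenosine in the T loop of tRNAs.

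The gene sequences of the 8 anticodons were read from GRCh38 at the positions of the RefSeq tRNA genes, and all 25 references matched a gene by name. For each anticodon the reference with the highest summed count is shown, plus the 3 whose pulldown difference depended on genotype (tRNA-Leu-TAA-3, tRNA-Ser-CGA-1 and tRNA-Ser-TGA-4, of which the last has the highest count of its anticodon). None holds an intron. The first run of capitals is the anticodon and the second is the variable arm, taken as the bases between the anticodon stem and the T arm.
tRNA-Leu-AAG-2: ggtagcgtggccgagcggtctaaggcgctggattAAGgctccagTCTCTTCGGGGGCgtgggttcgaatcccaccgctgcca
tRNA-Leu-CAG-1: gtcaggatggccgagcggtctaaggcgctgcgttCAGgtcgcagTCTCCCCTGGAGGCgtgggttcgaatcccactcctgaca
tRNA-Leu-TAA-1: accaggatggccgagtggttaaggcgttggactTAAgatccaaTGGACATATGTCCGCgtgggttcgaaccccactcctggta
tRNA-Leu-TAA-3: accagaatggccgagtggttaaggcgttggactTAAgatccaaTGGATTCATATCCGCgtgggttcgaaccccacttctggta
tRNA-Leu-TAG-3: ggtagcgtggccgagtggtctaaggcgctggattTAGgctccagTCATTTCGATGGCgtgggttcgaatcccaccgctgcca
tRNA-Ser-AGA-1: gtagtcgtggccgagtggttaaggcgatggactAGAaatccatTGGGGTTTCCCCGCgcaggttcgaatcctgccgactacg
tRNA-Ser-CGA-1: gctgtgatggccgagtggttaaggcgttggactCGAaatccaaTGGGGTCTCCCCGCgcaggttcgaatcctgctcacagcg
tRNA-Ser-CGA-4: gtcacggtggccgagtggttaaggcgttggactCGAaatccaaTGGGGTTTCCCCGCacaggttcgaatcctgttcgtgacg
tRNA-Ser-GCT-2: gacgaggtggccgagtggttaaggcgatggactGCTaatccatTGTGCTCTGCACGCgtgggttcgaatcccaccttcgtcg
tRNA-Ser-TGA-4: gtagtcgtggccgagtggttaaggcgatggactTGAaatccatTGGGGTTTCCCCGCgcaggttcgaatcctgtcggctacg

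These 10 genes are 82 or 83 nt long, with a variable arm of 13 to 15 nt. On GRCh38 all are annotated as tRNA genes. The leucine genes are tRNA-Leu-AAG-2-1 (chr5:181187701-181187782, plus strand), tRNA-Leu-CAG-1-1 (chr1:161441533-161441615, plus), tRNA-Leu-TAA-1-1 (chr6:144216547-144216629, plus), tRNA-Leu-TAA-3-1 (chr11:59551755-59551837, plus) and tRNA-Leu-TAG-3-1 (chr16:22195711-22195792, minus). The serine genes are tRNA-Ser-AGA-1-1 (chr6:27541775-27541856, minus), tRNA-Ser-CGA-1-1 (chr17:8138881-8138962, minus), tRNA-Ser-CGA-4-1 (chr12:56190364-56190445, plus), tRNA-Ser-GCT-2-1 (chr6:27297996-27298077, plus) and tRNA-Ser-TGA-4-1 (chr6:27505828-27505909, minus). tRNA-Leu-CAG-1 stands for 7 genes and tRNA-Leu-AAG-2 for 4, while the others shown have 1 gene. Leu-CAG and Ser-CGA have a cytidine at the wobble base, as tRNA-Leu-CAA does.

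A peak's value was its count of cDNAs after removal of PCR duplicates, and CPM are counts per 1000000 over all peaks of a library. Summed peak counts ranged from 48380 to 98032 in the WT libraries and the IPs, and were 194494 and 285539 in the KO inputs. No peak had fewer than 10 counts, which was worth 35 CPM in the deepest KO input and 207 CPM in the shallowest WT IP, so a low tRNA was listed more easily in the KO inputs. A reference without a peak is called unlisted, which is not a measurement of 0. ALKBH1 itself had 0 peaks on either strand in the 8 libraries, so the knockout could not be checked here. Intervals below cover counting error only.

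Summed, the 8 anticodons took a smaller share of the cytosolic tRNA counts after pulldown in both genotypes, which need not hold for each of them. Of the cytosolic tRNA counts they held, with 95% Wilson intervals in parentheses, 9.27% (8.95 to 9.59) and 9.44% (9.14 to 9.76) in the WT inputs and 6.41% (6.09 to 6.75) and 6.41% (6.05 to 6.78) in the WT IPs. The KO inputs held 9.03% (8.79 to 9.27) and 9.38% (9.18 to 9.59), and the KO IPs 7.33% (6.95 to 7.72) and 7.51% (7.13 to 7.91). The mean fell by 2.95 points in WT and by 1.79 points in KO, with no overlap between IP and input libraries in either genotype. An exact two-sided permutation test gave p = 0.333 for both, the smallest p that 2 against 2 libraries allow. Within these sums, tRNA-Ser-GCT-3 went from 5944 and 8732 CPM before the WT pulldown to 749 and 1054 after it. For KO it went from 3270 and 4105 CPM to 973 and 1458. Shares without this reference were not computed. A reference unlisted in a library entered that library's share as 0, although unlisted is no measurement of 0. Of all peak counts, the share was 3.21% ± 0.176 (SD, n = 2) in WT input, 2.20% ± 0.153 in WT IP, 2.53% ± 0.0161 in KO input and 2.49% ± 0.115 in KO IP. By this denominator the KO IPs, at 2.41% and 2.57%, lay on both sides of the KO inputs at 2.52% and 2.55%. These are bulk libraries, in which a change in the amount of a tRNA and a change in how much of it was labelled cannot be told apart.

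**Figure D1:**
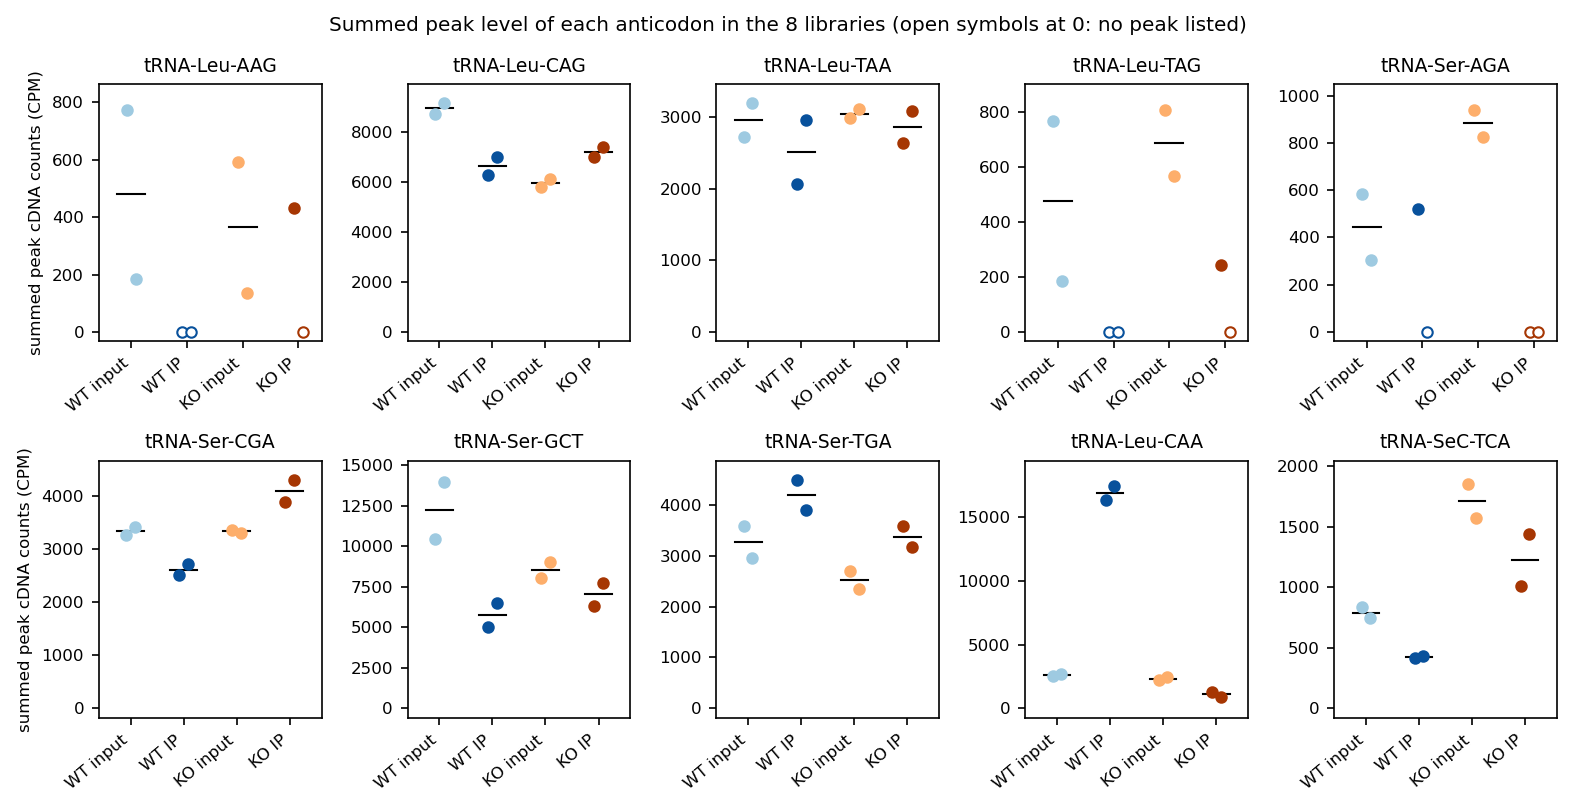
Summed peak level of each of the 8 anticodons and of the comparators tRNA-Leu-CAA and tRNA-SeC-TCA, in CPM on a linear axis, in WT input, WT IP, KO input and KO IP. Each point is 1 library, bars are means of 2 listed libraries and open points at 0 mark libraries without a listed peak; tRNA-Leu-CAA stands at 16327 and 17445 CPM in the WT IPs, while no long-arm leucine or serine anticodon of the 8 rises above 13955 CPM in any library.

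Among the leucine anticodons, tRNA-Leu-CAG and tRNA-Leu-TAA were listed in every library. Leu-CAG, which reads the most used leucine codon, stood at 8735 and 9181 CPM in the WT inputs, 6283 and 6986 in the WT IPs, 5809.9 and 6129 in the KO inputs against 7001 and 7404 in the KO IPs. Its WT IPs were below the WT inputs and its KO IPs above the KO inputs, without overlap. Leu-TAA stood at 2717 and 3203 CPM in the WT inputs, 2064 and 2956 in the WT IPs, 2992 and 3106 in the KO inputs against 2639.5 and 3088 in the KO IPs. Its IP and input libraries overlapped in both genotypes.

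tRNA-Leu-AAG and tRNA-Leu-TAG, which differ at the wobble base, were at the edge of detection. For Leu-AAG, WT input gave 774.8 and 183.6 CPM (73 and 18 counts) and KO input 591.3 and 136.6 CPM (115 and 39 counts). It was unlisted in both WT IPs, and had 23 counts in 1 KO IP. For Leu-TAG, WT input gave 764.2 and 183.6 CPM (72 and 18 counts) and KO input 807.2 and 567 CPM (157 and 162 counts). It was unlisted in both WT IPs, and had 13 counts in 1 KO IP.

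Of the serine anticodons, tRNA-Ser-GCT was the highest of the 8 in all 4 inputs. It stood at 10476 and 13955 CPM in the WT inputs, 5029.6 and 6490.3 in the WT IPs, 8026 and 9035.5 in the KO inputs against 6308.5 and 7749 in the KO IPs. All 4 IP libraries lay below all 4 input libraries. Ser-TGA stood at 3577 and 2948 CPM in the WT inputs, 4479 and 3907 in the WT IPs, 2699 and 2346 in the KO inputs against 3575 and 3165 in the KO IPs, with the IPs of a genotype above its inputs. Ser-CGA stood at 3258 and 3417 CPM in the WT inputs, 2507 and 2708 in the WT IPs, 3352 and 3299 in the KO inputs against 3875 and 4296 in the KO IPs, lower in the WT IPs and higher in the KO IPs than in their inputs. For Ser-AGA, WT input gave 584 and 306 CPM (55 and 30 counts) and KO input 941 and 827 CPM (183 and 236 counts). It had 34 counts in 1 WT IP and no peak in the KO IPs.

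The pulldown was tested with edgeR on counts summed per anticodon, which needs a peak in each of the 4 libraries compared and therefore left out Leu-AAG, Leu-TAG and Ser-AGA. Log2 differences below are IP over input after TMM scaling, with adjusted p over all features tested. In WT, 0 of the 5 anticodons tested were higher and 1 was lower, where 25.9% of all 189 features were higher and 25.9% lower, and 2 of the 5 had an unadjusted p under 0.05. Ser-GCT fell by 1.11 ± 0.234 on the log2 scale (SE, adjusted p = 0.00818, 2.16-fold lower). The other 4 did not pass: Leu-CAG had -0.45 ± 0.161 (adjusted p = 0.0537), Ser-CGA -0.38 ± 0.197 (0.168), Leu-TAA -0.26 ± 0.264 (0.473) and Ser-TGA 0.35 ± 0.183 (0.168). The median over the 5 was -0.38, beside -0.11 over all features and -0.06 over 33 other cytosolic tRNA anticodons. Without 1 WT IP library (replicate 1) or 1 WT input library (replicate 2) the Ser-GCT call was lost, as it was with unlisted libraries set at 0, and a call of Leu-CAG appeared without WT IP replicate 2. Per the study's methods an input was taken from the same labelled RNA as its pulldown. With the replicate number as a block in the edgeR fit Leu-CAG passed as well (-0.45, adjusted p = 0.00458), which made 2 calls of 5.

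In KO, 0 of the 5 were higher and 1 was lower, against 24.9% higher and 31.6% lower of all 193 features. Ser-GCT fell by 0.46 ± 0.156 (adjusted p = 0.0366, 1.38-fold lower), and this call held in 3 of 10 alternatives only. Leu-CAG had 0.08 ± 0.140, Ser-CGA 0.11 ± 0.170, Leu-TAA -0.28 ± 0.182 and Ser-TGA 0.23 ± 0.196, with adjusted p between 0.242 and 0.647. tRNA-Leu-CAA, fitted the same way, had 2.68 ± 0.164 in WT (adjusted p = 8.36e-05) and -1.26 ± 0.240 in KO (0.00347), and tRNA-SeC-TCA -0.92 ± 0.289 (0.0370) and -0.68 ± 0.263 (0.0610).

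The sums were taken over peaks called separately in each library. Ser-GCT had 4 peaks covering 162 nt in each WT input and 3 peaks covering 108 and 116 nt in the WT IPs, with mean counts per peak of 247 and 342 against 110 and 105. In KO it had 4 peaks over 142 and 157 nt in the inputs and 3 peaks over 83 and 110 nt in the IPs, with means of 390 and 645 against 112 and 135. Leu-CAG had 2 peaks over 64 and 74 nt in the WT inputs and 1 peak over 47 and 46 nt in the WT IPs. The references behind the sums are described one by one.

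The references were tested one by one, and differences between references of 1 anticodon were not tested. The WT IPs differed from the WT inputs in 3 of the 11 references with a peak in all 4 libraries, 1 higher (23.5% of all 243 regions were) and 2 lower (25.1%). tRNA-Ser-GCT-3 had 5944 and 8732 CPM in the WT inputs against 749 and 1054 in the WT IPs, so it fell by 3.10 ± 0.313 on the log2 scale (adjusted p = 0.00221, 8.56-fold lower). tRNA-Ser-GCT-2 stood at 3057 and 3815 CPM in the WT inputs and at 3455 and 4485 in the WT IPs (log2 difference 0.14 ± 0.224, adjusted p = 0.647), and tRNA-Ser-GCT-1 at 945 and 898 against 826 and 951 (-0.12 ± 0.212, 0.681). GCT-3 thus made up 60.1% of the Ser-GCT counts in the WT inputs and 15.6% in the WT IPs, and GCT-2 28.1% and 68.9%.

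tRNA-Ser-CGA-1 fell in the same way, from 1178 and 1224 CPM in the WT inputs to 367 and 413 in the WT IPs (log2 difference -1.69 ± 0.219, adjusted p = 0.00450). tRNA-Ser-CGA-4, at 1921 and 1969 CPM against 2140.2 and 2294, had 0.12 ± 0.161 (0.585). tRNA-Ser-TGA-1 rose from 446 and 530.4 CPM to 1009 and 1406 (1.24 ± 0.288, adjusted p = 0.0268), a call that was lost without WT IP replicate 2 or WT input replicate 1 and with unlisted libraries set at 0. The other 2 Ser-TGA references tested had -0.28 ± 0.289 (tRNA-Ser-TGA-2) and 0.27 ± 0.204 (tRNA-Ser-TGA-4), and the 3 leucine references tested lay between -0.33 and -0.27, none past the threshold.

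In KO, 12 references were tested, 3 higher (25.6% of all 246 regions) and 3 lower (30.9%). tRNA-Ser-GCT-3 fell again, from 3270.0 and 4105 CPM in the KO inputs to 973 and 1458 in the KO IPs (-1.69 ± 0.228, adjusted p = 0.00116). tRNA-Leu-CAG-2 fell most, from 1069 and 1226 CPM to 187 and 192, the latter being 10 counts in each library, the lowest that a list holds (-2.69 ± 0.228, 0.000252). tRNA-Leu-TAA-3 fell from 704 and 725 to 393 and 479.5 CPM (-0.81 ± 0.211, 0.0166), a call lost without KO IP replicate 1, with DESeq2 (adjusted p = 0.286), with a mean count of at least 50 (0.0536) and with unlisted libraries set at 0 (0.0749).

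Higher in the KO IPs were tRNA-Ser-TGA-1, from 607 and 567 CPM to 1685 and 1573 (1.38 ± 0.193, adjusted p = 0.00131), tRNA-Ser-GCT-1, from 422 and 417 to 711 and 978 (0.91 ± 0.226, 0.0140), and tRNA-Leu-CAG-1, from 4741 and 4903 to 6814 and 7212 (0.44 ± 0.130, 0.0253). Without KO IP replicate 2 the calls of GCT-1 and CAG-1 were lost, and that of CAG-1 also without either KO input library. The GCT-1 call was also lost with DESeq2 (adjusted p = 0.122), the CAG-1 call with the replicate block in edgeR (0.45, adjusted p = 0.0616), and both with unlisted libraries set at 0. With this block the other calls within a genotype kept their side of the threshold. tRNA-Ser-CGA-1 did not pass in KO (0.31 ± 0.198, adjusted p = 0.237). tRNA-Ser-TGA-1 was the reference of the 11 tested in both genotypes that was higher in both, and tRNA-Ser-GCT-3 the one that was lower in both.

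**Figure D2:**
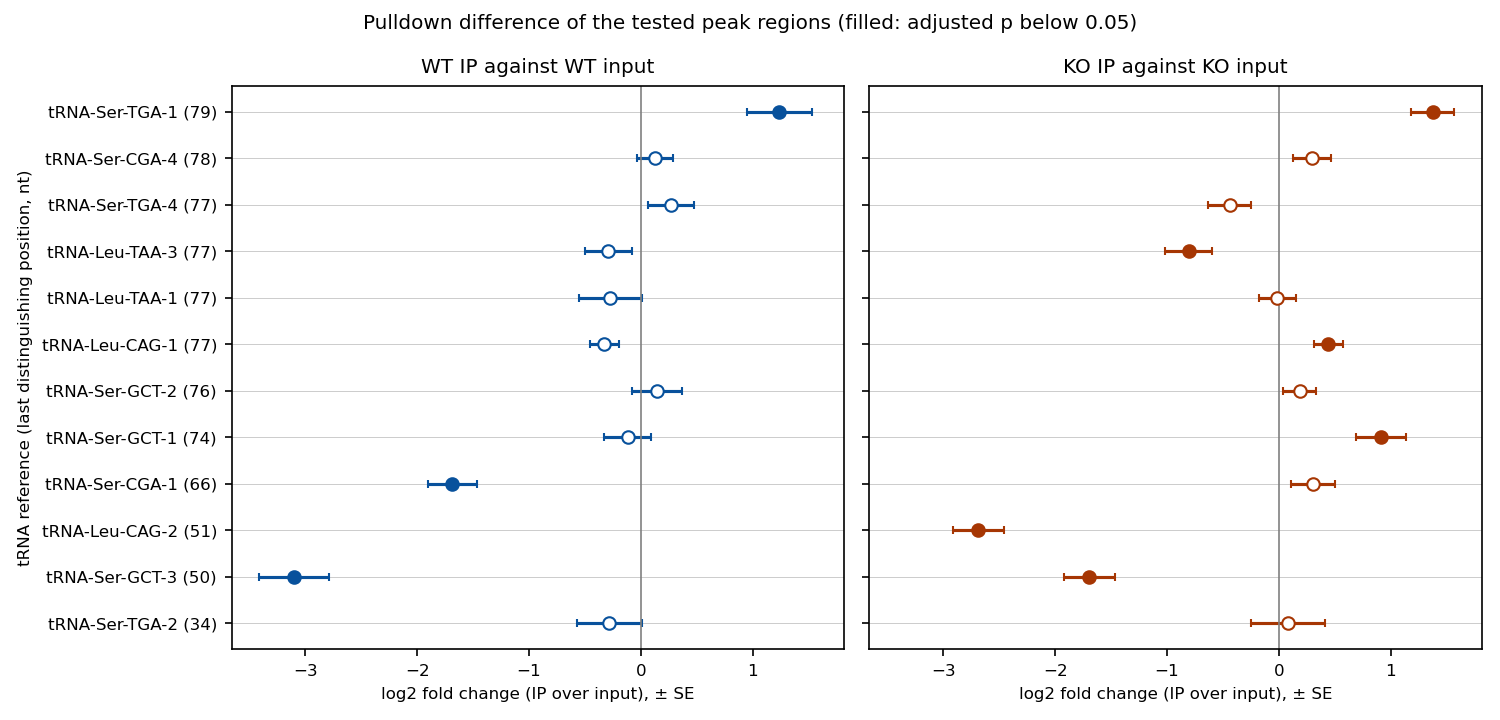
Log2 difference of IP over input (TMM scaled) for each tested tRNA reference, in WT on the left and KO on the right; bars are SE from edgeR, filled points have an adjusted p under 0.05, and the number after a name is the last position at which its sequence differs from its nearest tRNA. tRNA-Ser-GCT-3 and tRNA-Leu-CAG-2, at positions 50 and 51, lie furthest to the left at -3.10 and -2.69, and tRNA-Ser-TGA-1, at position 79, furthest to the right at 1.24 and 1.38.

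Many references could not enter these tests, because they were not listed in all the libraries compared. Both libraries of a group listed 17 references in WT input, 11 in WT IP, 20 in KO input and 12 in KO IP, and 11 were listed in all 8 libraries. In WT, 5 of the 17 references with a peak in both inputs had none in the IPs (29.4%), against 34.1% of all 460 regions listed in both inputs and 6.19% of 97 other cytosolic tRNA references. They were tRNA-Leu-CAG-2 with 94 and 98 counts, tRNA-Leu-AAG-2 with 73 and 18, tRNA-Ser-GCT-5 with 50 and 50, tRNA-Leu-TAG-3 with 33 and 18 and tRNA-Ser-CGA-3 with 15 and 22. In KO there were 6 of 20 (30.0%, against 52.1% of all 683 regions and 15.1% of 106 other cytosolic tRNA references), tRNA-Ser-AGA-1 with 169 and 218 counts, tRNA-Leu-TAG-3 with 107 and 133, tRNA-Ser-GCT-5 with 59 and 108, tRNA-Ser-CGA-3 with 41 and 64, tRNA-Leu-TAG-2 with 19 and 11 and tRNA-Ser-AGA-3 with 14 and 18. The IPs were the shallower libraries, with 48380 to 65413 summed counts against 94218 to 285539 in the inputs, and the part of depth in these counts was not tested. The lowest count a list holds is worth 153 and 207 CPM in the WT IPs. tRNA-Leu-CAG-2 stood above that in the WT inputs, at 998 and 1000 CPM, but a fall in WT was not tested. For tRNA-Ser-CGA-3 at 159 and 224 CPM no fall could be shown. Unlisted refers to the tRNA mapping only. In the mapping to the genome, the gene tRNA-Leu-CAG-2-2 had 11 counts in WT IP replicate 1, and tRNA-Leu-TAG-3-1 had 21 and 24 in the KO IPs.

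The reverse, a peak in a WT IP and in neither WT input, was seen for 3 of the 15 references listed in a WT IP (against 37.1% of all 598 regions and 8.65% of 104 other cytosolic tRNA references), all in WT IP replicate 1 alone and with low counts: tRNA-Ser-TGA-3 with 17, tRNA-Ser-AGA-4 with 12 and tRNA-Ser-AGA-2 with 10. In KO there were 0 of 14 (20.3% of all 448 regions and 1.10% of 91 other cytosolic tRNA references). The remaining partly listed references were tRNA-Leu-TAG-1 (20 counts in WT input replicate 1, 31 and 18 in the KO inputs, 13 in KO IP replicate 1), tRNA-Leu-TAG-2 (19 in WT input replicate 1), tRNA-Ser-AGA-1 (30 and 30 in the WT inputs, 12 in WT IP replicate 1), tRNA-Ser-AGA-3 (25 in WT input replicate 1), tRNA-Leu-AAG-2 (115 and 39 in the KO inputs, 23 in KO IP replicate 1), tRNA-Leu-TAA-4 (11 in WT input replicate 2, 14 in KO input replicate 2) and tRNA-Leu-TAA-2 (11 in KO input replicate 2).

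The references differ in how far along the tRNA they can be told apart. For each sequence the last distinguishing position was taken, counted from 1 at the 5′ end, as the last base before a 3′ stretch that is identical in another of the 443 nuclear tRNA genes compared. A cDNA that begins 3′ of this base carries nothing that tells the references apart. The pairs below show this for references that could be told apart only over a short stretch. They were chosen after their values were seen, and the differing base is in capitals.
tRNA-Ser-GCT-3: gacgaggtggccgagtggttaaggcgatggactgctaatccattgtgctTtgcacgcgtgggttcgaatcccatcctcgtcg
tRNA-Ser-GCT-4: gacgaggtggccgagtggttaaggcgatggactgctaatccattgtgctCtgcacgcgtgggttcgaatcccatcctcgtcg
tRNA-Ser-AGA-1: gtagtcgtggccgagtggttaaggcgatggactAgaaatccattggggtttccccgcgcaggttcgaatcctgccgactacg
tRNA-Ser-TGA-2: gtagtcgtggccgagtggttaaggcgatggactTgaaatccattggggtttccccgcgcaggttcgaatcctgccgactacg

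The first pair differs by T50C, in the variable arm, and the second by A34T, at the wobble base. GCT-3 has 1 gene (chr11:66348120-66348201, plus strand), GCT-4 has 3 (the first at chr6:28597340-28597421, minus) and TGA-2 has 1 (chr6:27545689-27545770, plus). All 132 peaks of the 25 references ended before their last distinguishing position. Where only cDNAs that fit 1 reference are counted, a peak cannot lie 3′ of that position, whatever the RNA. The ends are therefore given as a description of the mapping. In 7 references the furthest peak end was the very base before it, among them position 49 for GCT-3, 33 for AGA-1 and TGA-2, 55 for GCT-5, 49 for CGA-3, 65 for CGA-1 and 73 for GCT-1.

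Of the 32 distinct sequences of the 8 anticodons, 18 are told apart only 5′ of the T arm and 14 up to the T arm or the acceptor stem. Of the first, 13 had a peak, 8 were listed in both WT inputs and 2 in both WT IPs, and in KO 10 and 3. Of the second, 12 had a peak, 9 were listed in both WT inputs and 9 in both WT IPs, and in KO 10 and 9. tRNA-Ser-GCT-4, with 3 genes and a last distinguishing position of 7, had no peak, nor did tRNA-Leu-AAG-1 with 3 genes and position 35.

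The references told apart only 5′ of the T arm held 37.3% and 37.1% of the counts of the 8 anticodons in the WT inputs against 14.6% and 9.96% in the WT IPs. In KO they held 31.2% and 31.1% in the inputs against 11.0% and 8.73% in the IPs. All 4 IPs were below all 4 inputs. In the WT fit the 2 such references, tRNA-Ser-GCT-3 and tRNA-Ser-TGA-2, had log2 differences of -3.10 and -0.28. The 9 others had a median of -0.12. In KO the medians were -1.69 over 3 such references and 0.30 over 9 others. These medians describe the tested references and no test was made of them, since the grouping was set after the values were seen. tRNA-Ser-TGA-2, told apart up to position 34 only, had 0.09 in KO. tRNA-Ser-CGA-1, told apart up to position 66 in the T arm, had -1.69 in WT, below TGA-2. The values of the 2 kinds of reference thus overlapped. tRNA-Ser-AGA-2, tRNA-Ser-AGA-4 and tRNA-Ser-TGA-3, told apart only 5′ of the T arm, were listed in a WT IP and in no other library.

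**Figure D3:**
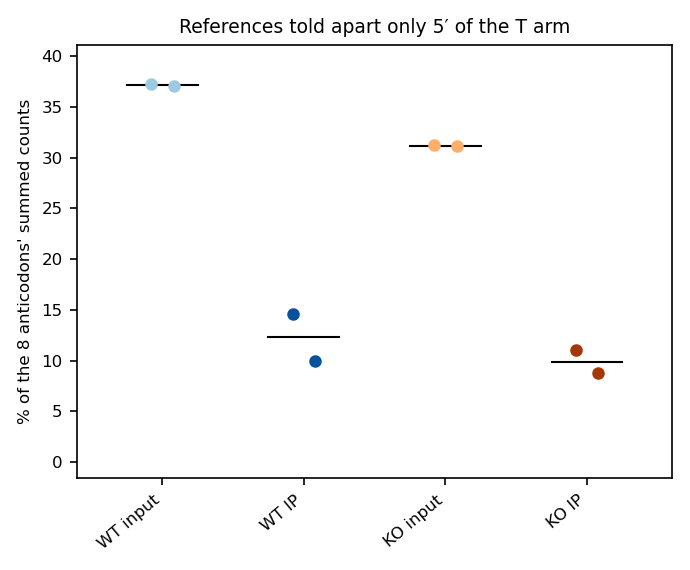
Share of the summed counts of the 8 anticodons (percent, linear axis) held by references told apart only 5′ of the T arm, with 1 point per library and a bar at the mean of 2 libraries. The 4 input libraries lie between 31.1% and 37.3% and the 4 IP libraries between 8.73% and 14.6%.

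Peak starts gathered at a pair of places. Of the 132 peaks, 69 started within 1 nt of a guanosine between the D arm and the anticodon stem (base 26 in most references and 27 where the anticodon starts at 35), a base that is methylated in many tRNAs, and 25 started at position 2. Starts at position 2 were found in 8 of 38 WT input peaks, 14 of 42 KO input peaks, 1 of 26 WT IP peaks and 2 of 26 KO IP peaks. Starts of the other cytosolic tRNA peaks were not counted. These places are therefore not shown to be particular to the 8 anticodons. tRNA-Ser-CGA-4, for example, started at 2 in all 4 inputs and between 24 and 26 in the IPs. Over the 11 references listed in all libraries, the median start per library was 23.0 ± 2.83 (SD, n = 2) in WT input, 25.0 ± 0 in WT IP, 23.0 ± 2.83 in KO input and 26.0 ± 0 in KO IP.

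Over the same 11 references the median end was 68.0 ± 1.41 in WT input, 72.0 ± 0 in WT IP, 70.5 ± 0.707 in KO input and 70.5 ± 0.707 in KO IP. In WT the IP peaks ended beyond both input peaks in 7 of 11 references, against 37.0% of 92 cytosolic tRNA references, and the reverse held in 3 of 11 (22.8%). The 7 were Leu-CAG-1, Leu-TAA-1, Leu-TAA-3, Ser-GCT-1, Ser-GCT-2, Ser-TGA-1 and Ser-TGA-4, and the 3 were Ser-CGA-1, Ser-GCT-3 and Ser-TGA-2, of which GCT-3 and TGA-2 are told apart only 5′ of the T arm. The 7 ended 4 to 6 nt beyond the T-loop adenosine in the WT IPs (base 67 or 68, the site of 1-methyladenosine in many tRNAs) and 0 to 4 nt beyond it in the WT inputs. Summed peak counts were 48380 and 65413 for the WT IPs, below the 94218 and 98032 of the WT inputs.

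In KO the IP peaks ended beyond the inputs in 4 of 12 references (12.0% of 92) and the inputs beyond the IPs in 3 of 12 (21.7%). Between the inputs, KO peaks ended beyond WT peaks in 10 of 17 references (31.0% of 113) and WT beyond KO in 0 of 17 (3.54%). tRNA-Ser-GCT-1 ended at 67 in both WT inputs and at 73 in both KO inputs, and tRNA-Leu-TAA-1 at 69 and 74. The KO inputs also had 2 to 3 times the summed counts of the WT inputs, and the part of depth in the longer peaks was not tested. Between the IPs, WT ended beyond KO in 3 of 11 references (22.4% of 85) and KO beyond WT in 3 of 11 (21.2%).

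**Figure D4:**
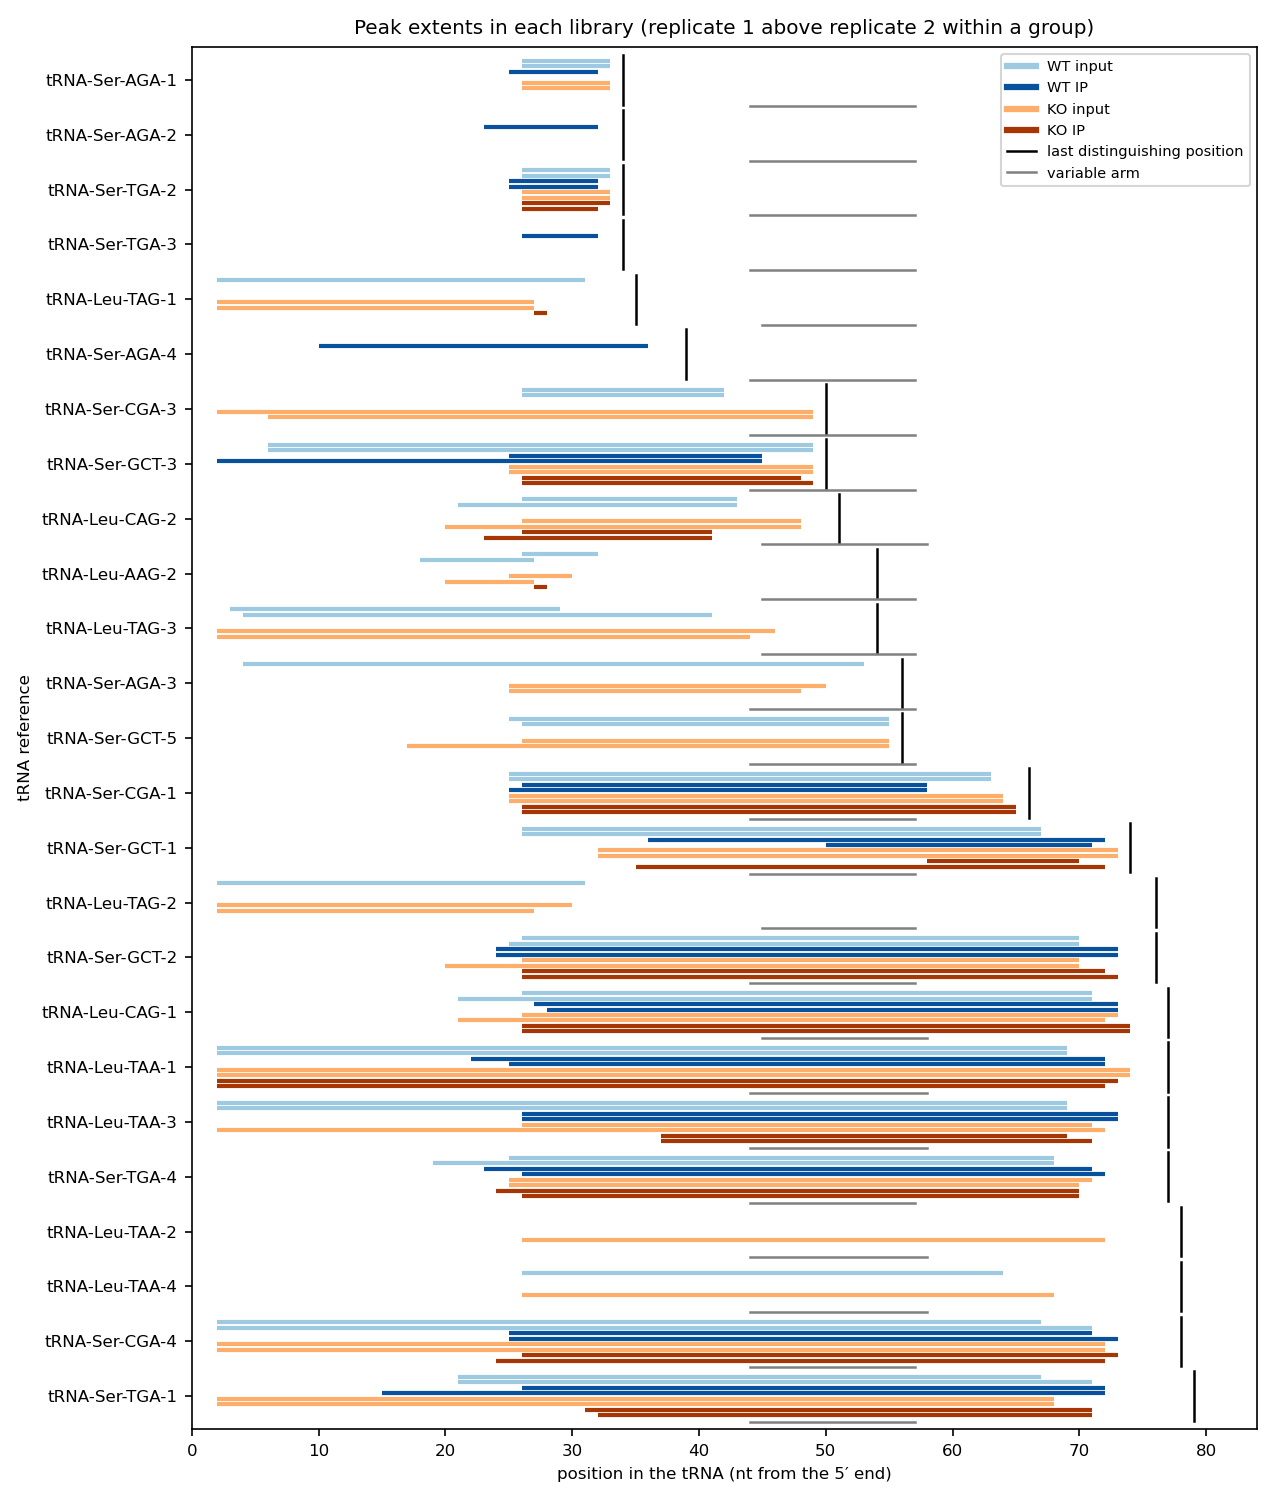
Start and end of the peak of each of the 25 tRNA references in each library, in nt from the 5′ end of the tRNA, with colours for WT input, WT IP, KO input and KO IP, a grey line for the variable arm and a black tick at the last distinguishing position; references are ordered by that position. No bar reaches its black tick. Of the references with a tick at 56 or less, Ser-GCT-3 and Ser-TGA-2 have bars in all 4 IP libraries (blue for WT IP, brown for KO IP), and Leu-TAG-3, Ser-AGA-3, Ser-CGA-3 and Ser-GCT-5 have none there.

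Between the genotypes, the IPs were first compared directly. Per anticodon, 1 of 5 was higher in the WT IPs (21.6% of all 171 features) and 0 were lower (19.9%). This was Ser-TGA, with 4479 and 3907 CPM in the WT IPs against 3575 and 3165 in the KO IPs (log2 difference WT over KO 0.63 ± 0.159, adjusted p = 0.0308), and the call was lost without any 1 of the 4 libraries, with DESeq2, with peak totals as library size and with unlisted libraries set at 0. The others lay between -0.33 (Ser-CGA) and 0.20 (Leu-CAG), with adjusted p from 0.206 to 0.906. tRNA-Leu-CAA had 4.25 ± 0.209 (adjusted p = 0.000427).

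Per reference, 1 of 11 was higher in the WT IPs (18.6% of all 220 regions) and 1 was lower (19.1%). tRNA-Ser-TGA-2 stood at 1529 and 1240.2 CPM in the WT IPs and at 824 and 595 in the KO IPs (1.21 ± 0.319, adjusted p = 0.0193). tRNA-Ser-CGA-1 stood at 367 and 413 against 861 and 844 (-0.88 ± 0.301, adjusted p = 0.0499). Leaving out either KO IP library ended both calls, and leaving out either WT IP library that of CGA-1. Both were also lost with DESeq2 and with unlisted libraries set at 0. Of all regions called, 49.4% were higher in the WT IPs with TMM scaling and 33.7% with the peak totals as library size, which moved the median of all regions by -0.25 (52.1% and 31.4% in the anticodon fit, moved by -0.32).

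The inputs differed as well, before any pulldown. Of the 8 anticodons, all tested, 1 was higher in the WT inputs (12.3% of all 332 features) and 0 were lower (16.3%). Leu-CAG had 8735 and 9181 CPM in WT and 5809.9 and 6129 in KO (0.69 ± 0.0819, adjusted p = 0.0198). Ser-GCT had 0.63 ± 0.165 (0.0502) and Ser-TGA 0.48 ± 0.161 (0.0761), while Leu-TAA and Ser-CGA had 0.06 ± 0.122 and 0.11 ± 0.0979. The low Leu-AAG, Leu-TAG and Ser-AGA had 0.50 ± 0.997, -0.43 ± 0.698 and -0.89 ± 0.363. The Leu-CAG call was lost without either WT input library or without KO input replicate 1, and with unlisted libraries set at 0.

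Of 17 references tested in the inputs, 4 were higher in WT (14.5% of all 400 regions) and 1 was lower (19.5%). Higher were tRNA-Ser-GCT-1, with 945 and 898 CPM against 422 and 417 (1.19 ± 0.149, adjusted p = 0.0177), tRNA-Ser-GCT-3, with 5944 and 8732 against 3270.0 and 4105 (1.04 ± 0.215, 0.0341), tRNA-Ser-CGA-1, with 1178 and 1224 against 571 and 721 (0.94 ± 0.156, 0.0240), and tRNA-Leu-CAG-1, with 7737 and 8181 against 4741 and 4903 (0.77 ± 0.0661, 0.0110). Lower was tRNA-Ser-AGA-1, with 318 and 306 CPM against 869 and 763 (-1.33 ± 0.182, 0.0179). AGA-1 and TGA-2 are the pair that differs at the wobble base only, and TGA-2 had 1964 and 1255 CPM in the WT inputs against 771 and 480 in KO (1.42 ± 0.375, adjusted p = 0.0527). Without either KO input library all 5 calls were lost, as were those of AGA-1, CGA-1, GCT-1 and GCT-3 without WT input replicate 2. All 5 were lost with unlisted libraries set at 0, and those of AGA-1 and CGA-1 with DESeq2.

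Whether the pulldown difference itself depended on genotype was tested as an interaction, (WT IP over WT input) over (KO IP over KO input). Per anticodon 0 of 5 passed in either direction, against 21.7% of all 138 features higher and 5.07% lower, and 0 of the 5 had an unadjusted p under 0.05. By DESeq2 the number was also 0. Ser-TGA had 0.50 ± 0.236 (adjusted p = 0.139), Leu-TAA 0.40 ± 0.338, Ser-CGA -0.11 ± 0.235, Leu-CAG -0.15 ± 0.215 and Ser-GCT -0.26 ± 0.328. The fit had a median of 0.19 over all features. tRNA-Leu-CAA had 4.32 ± 0.286 (adjusted p = 1.72e-05). The 81.1% of calls that were higher became 55.3% with RLE size factors and 30.8% with the peak totals as library size, which moved the median by -0.23 and -0.55.

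Among the references, 2 of 11 had a larger IP to input ratio in WT (20.4% of all 186 regions) and 1 a smaller one (10.8%). tRNA-Ser-CGA-1 had the smaller one, -1.66 ± 0.270 (adjusted p = 0.00467), and this call held in all 15 alternatives. Among the alternatives for references, summing peaks per tRNA reference could not change their counts, since the 25 references had 25 regions. Its 1178 and 1224 CPM in the WT inputs fell to 367 and 413 in the WT IPs, whereas its 571 and 721 CPM in the KO inputs stood beside 861 and 844 in the KO IPs. Its peak reached base 58 in both WT IPs, whereas in the remaining 6 libraries it reached bases 63 to 65. The second run of capitals above, its variable arm, ends at base 57.

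tRNA-Ser-TGA-4 had the larger ratio in WT, with 1168 and 1163 CPM in the WT inputs, 1682 and 1261 in the WT IPs, 1321 and 1299 in the KO inputs against 1067 and 997 in the KO IPs (1.05 ± 0.262, adjusted p = 0.0205). tRNA-Leu-TAA-3 had 467 and 499.8 CPM in the WT inputs, 413 and 413 in the WT IPs, 704 and 725 in the KO inputs against 393 and 479.5 in the KO IPs (0.85 ± 0.267, 0.0481). The TGA-4 call held in 5 of 15 alternatives and that of TAA-3 in 3 of 14. Leaving out any 1 of the 8 libraries ended the TAA-3 call, and any 1 except WT IP replicate 2 ended the TGA-4 call. Both were lost with peak totals as library size and with unlisted libraries set at 0, TAA-3 also with RLE size factors and TGA-4 with DESeq2. With the replicate block 5 of the 11 references passed instead of 3. In the region fit 65.5% of calls were higher, 50.8% with RLE size factors and 30.4% with the peak totals as library size, with the median moved by -0.16 and -0.37.

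**Figure D5:**
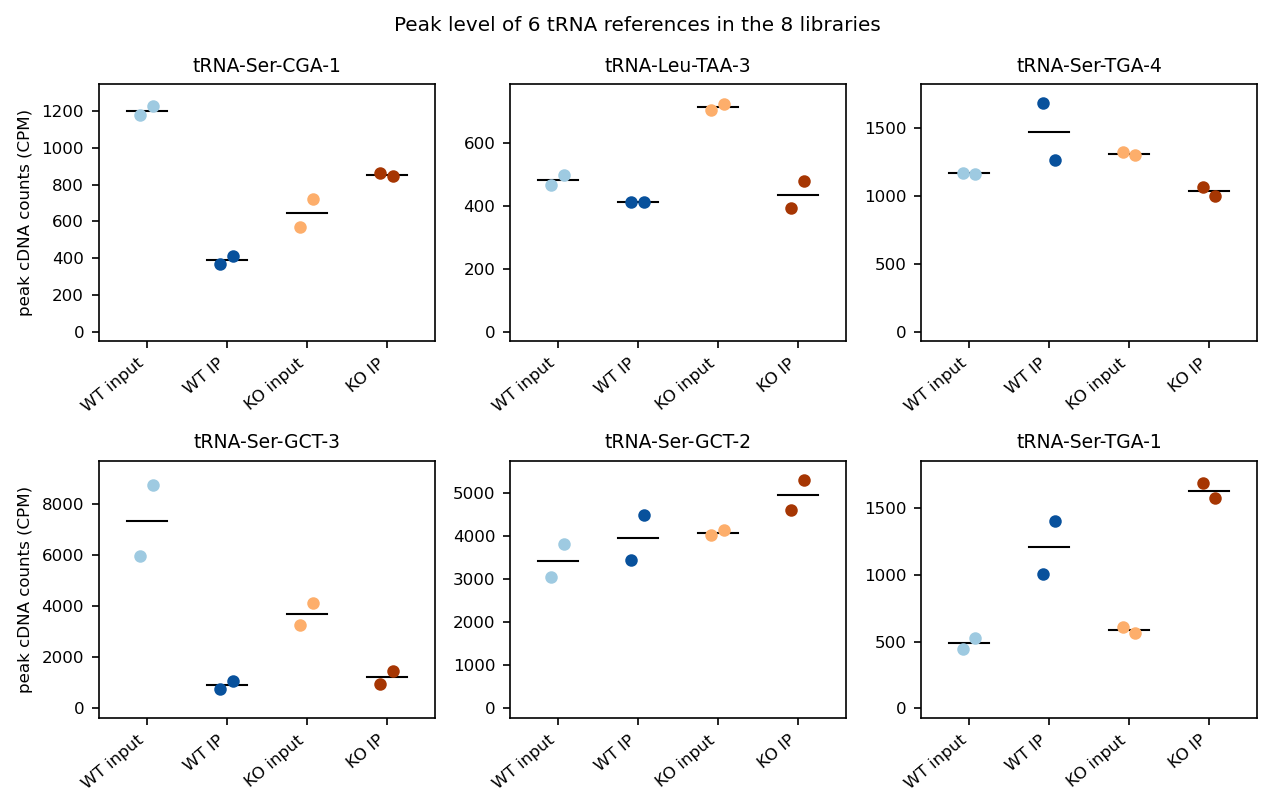
Peak level (CPM, linear axis) of 6 references in WT input, WT IP, KO input and KO IP, with 1 point per library and a bar at the mean of 2. In the upper row, tRNA-Ser-CGA-1 is at 367 and 413 CPM in the WT IPs and between 571 and 1224 CPM in the other 6 libraries; in the lower row, tRNA-Ser-GCT-3 falls and tRNA-Ser-TGA-1 rises from input to IP in both genotypes.

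The filter that the study used on peaks was applied as well. It keeps a peak with more than 10 counts in both IP replicates that has no peak in the inputs, or whose CPM ratio of IP over input averages above 1.5. The scaling to CPM and the average of the ratio over replicates were chosen here. In WT 11 peaks of the 8 anticodons were in both IPs and 1 was kept (9.09%, against 47.8% of all 343 such peaks), and none of the 11 was kept and absent from the KO IPs (21.0% of 343). In KO 2 of 11 were kept (18.2%, against 43.5% of 294). tRNA-Ser-TGA-1 was kept in both genotypes, with mean CPM ratios of 2.46 in WT and 2.77 in KO, and tRNA-Ser-GCT-1 in KO, with 2.02. Nearest below the limit were tRNA-Ser-TGA-4 in WT at 1.26 and tRNA-Leu-CAG-1 in KO at 1.45. Over the other cytosolic tRNA peaks in both IPs, 28 of 87 were kept in WT and 20 of 78 in KO. The study, in contrast, names Ser-CGA among its high-confidence targets of this pulldown. For those it required a cDNA score above 100 and absence from the KO. Here tRNA-Ser-CGA-1 and tRNA-Ser-CGA-4 were not kept in WT, with mean CPM ratios of 0.325 and 1.14. Each also had a peak in both KO IPs. In the WT IPs CGA-4 had 140 and 111 counts, above that score, and CGA-1 had 24 and 20, below it. The filter used here therefore did not return that target, and the reason was not tested.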

How the data were processed

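ARP sequencing libraries of WT and ALKBH1 KO HEK-293 cells (HEK293T in the study's methods; input and IP, 2 biological replicates each per the study's methods) were analysed. The authors removed PCR duplicates by unique molecular identifier, mapped reads with STAR to tRNA and rRNA and the remainder uniquely to GRCh38, and called peaks with Paraclu in each library separately. The deposited values are raw cDNA counts per peak. Peak lists were read as 0-based starts and written from 1. Peaks were merged where they overlapped by at least 1 nt on 1 strand and compared in R 4.3.3 by the quasi-likelihood test of edgeR 4.0.16 (TMM scaling, two-sided, Benjamini-Hochberg, threshold 0.05) on the compared groups, where every library had a peak, as regions and as sums per anticodon. SE is the log2 difference over the root of F. The fit code was run on simulated counts with a fixed spread not taken from these libraries. That run therefore does not give the error rate of the tests here. Single values used exact permutation tests. DESeq2 1.42.0, other scalings, filters, the replicate block and leaving out libraries were alternatives. The deviation of replicate 1 from its group mean (log2 CPM, 186 regions) correlated by 0.49 (WT) and 0.23 (KO) between input and IP. All 8 anticodons were named in each comparison, and the regions past the threshold, up to 5 in each direction. Members and lists were chosen with earlier results of these data known. Sequences came from GRCh38 at RefSeq positions; tRNA-Ser-AGA-2 is not printed. The spike-in was not analysed here. Scripts ran in Python 3.11.15 (with scipy 1.17.1). The processing could move values: near-identical tRNA references share cDNAs, and Paraclu lists no peak under 10 counts.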

Additional observations from a re-analysis of the deposited data

Results flagged for a closer look

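In 3 tRNA references the pulldown difference differed between WT and KO by the edgeR interaction test. The log2 values, WT over KO, were -1.66 for tRNA-Ser-CGA-1 (adjusted p = 0.00467), 1.05 for tRNA-Ser-TGA-4 (0.0205) and 0.85 for tRNA-Leu-TAA-3 (0.0481).

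A signal outside the lists used above stood at the gene of tRNA-Ser-TGA-3-1 in the genome mapping, with 10 and 11 counts in the WT IPs and no peak in the other 6 libraries. These counts are at the lowest value a list holds.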

How the results depend on the processing

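6 calls held under every alternative run on them. They were those of tRNA-Ser-CGA-1 and tRNA-Ser-GCT-3 in WT, tRNA-Leu-CAG-2, tRNA-Ser-GCT-3 and tRNA-Ser-TGA-1 in KO, and tRNA-Ser-CGA-1 in the interaction. The other calls were lost under at least 1. Summing peaks per tRNA reference is counted among the alternatives, although it left the counts of these references unchanged. Of 519 single values under alternatives, 387 kept their direction and their side of the threshold, 88 lost the call, 21 gained one and 23 changed sign.

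Counts of anticodons called changed as follows, and the cause was not tested. In WT IP against WT input, 1 became 2 with a mean count of at least 50, with peak totals as library size and with the replicate block, and 0 with uncalled libraries set at 0 (0 to 2 leaving out a library). In KO IP against KO input, 1 became 0 with DESeq2, RLE size factors or peak totals and 2 with the mean count of 50 (0 to 2 leaving out a library). Between the IPs, 1 became 0 with DESeq2, with uncalled libraries at 0 and without any 1 library. Between the inputs, 1 became 2 with DESeq2 or RLE, 3 with the mean count of 50, 4 with the replicate block and 0 with uncalled libraries at 0 (0 to 2 leaving out a library). For the interaction, 0 became 2 with the mean count of 50, with peak totals and without KO IP replicate 1 (0 to 2). Of the references, 2 called between the IPs became 0 with DESeq2 or uncalled libraries at 0 (0 to 2 leaving out a library), 5 between the inputs became 0 with uncalled libraries at 0 (0 to 6), and 3 in the interaction became 5 with the replicate block (1 to 2). The labels do not say that equal replicate numbers mark 1 RNA preparation. Deviations of replicate 1 from its group mean correlated between -0.05 and 0.49 over 186 regions in the 6 pairs of groups. These are not correlations of the libraries themselves. Within a genotype the replicate block changed the calls of Leu-CAG (WT) and tRNA-Leu-CAG-1 (KO), given above, and no other.

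Signs changed in tests that had not passed. With peak totals as library size these were, between the IPs, Leu-CAG -0.12, Leu-TAA -0.19 and Ser-GCT -0.29, between the inputs Leu-TAA -0.04 and in the interaction Leu-TAA -0.15 and Ser-TGA -0.05. With uncalled libraries at 0 they were Leu-TAA -0.05 (inputs) and -0.15 (interaction) and Ser-TGA -0.07 (interaction), and with the mean count of 50 Leu-TAA -0.02 (interaction). Leaving out 1 library also changed signs, with values from -0.58 to 0.10 for Leu-TAA in WT IP against WT input, 0.00 to 0.19 for Ser-CGA in KO IP against KO input, -0.15 to 0.41 for Leu-TAA and -0.20 to 0.25 for Ser-GCT between the IPs, -0.87 to 1.86 for Leu-AAG, -0.08 to 0.18 for Leu-TAA and -1.79 to 0.23 for Leu-TAG between the inputs, and -0.21 to 0.68 for Leu-TAA and -0.90 to 0.01 for Ser-GCT in the interaction. A sample left alone in its group is assumed to vary like the other groups.

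With only peaks above 100 counts the share of all counts was 2.00% in WT IP, 2.65% in KO input and 2.18% in KO IP, and that of cytosolic tRNA counts 8.57% in WT input, 5.25% in WT IP and 6.16% in KO IP. The start weighted by count was 15.95 in WT input, 25.4 in WT IP, 18.4 in KO input and 24.7 in KO IP, and the end 62.2, 68.5 and 66.5 in the first 3. Over every listed reference the median end was 58.8 in WT input, 71.5 in WT IP and 56 in KO input. The study's filter kept 0 peaks in either genotype above 100 counts and 1 in KO with a reciprocal overlap of 50%. Without WT IP replicate 2 it kept 3 in WT, 2 of them absent from the KO IPs, and without KO IP replicate 2 it kept 4 in KO. Relative to TMM, peak totals moved the median of all features in the anticodon fits by 0.18 (KO IP against input), -0.32 (IPs) and -0.11 (inputs), and RLE by 0.11 (KO IP against input), with 0.14 in the WT region fit.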

Other observations

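The genome mapping also held peaks at the genes of these tRNAs, on the strand of the gene, in 26 genes. Summed over the genes they came to 667 and 734 counts in the WT inputs, 71 and 85 in the WT IPs, 855 and 1160 in the KO inputs and 63 and 114 in the KO IPs. The gene of tRNA-Ser-GCT-3-1 had 464 and 340 counts in WT input, 39 and 17 in WT IP, 421 and 255 in the KO inputs and 42 and 31 in the KO IPs. It was the gene listed in all 8 libraries, and the pulldown test of its reference is given above. Both mappings come from the same libraries, whose summed peak counts ranged from 48380 to 285539 and were highest for KO input. The gene counts given here are not scaled to that depth. Higher counts for KO than for WT input therefore do not show higher levels. Genes of tRNA-Ser-GCT-4, whose reference had no peak in the tRNA mapping, had 33 counts (GCT-4-1) and 26 counts (GCT-4-2) in 1 WT input each, and 25 and 21 in 1 KO input each, and none in the IPs.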
